A study of Rattus norvegicus with 4 samples.

Results

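Astrocytes, the glia that clear glutamate, feed neurons and buffer ions in the cortex, are recognised by a small set of abundant genes, 6 of which were examined here: Gfap, Vim, Aldoc, Clu, Ndrg2 and Slc1a3. The tables list noncoding transcripts, and each row is 1 listed transcript. Members were all rows whose gene name is 1 of these 6, which gave 7 of the 20524 rows: 2 for Ndrg2 and 1 for each other gene. The names come from the AceView part of the row name, the text before its Sep08 suffix. All 6 genes are protein-coding in RefSeq, so each row is a listed noncoding transcript at such a gene. Reads from the mature messenger RNA of these genes may be part of the counts.

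Long noncoding RNA was profiled by RNA sequencing of total RNA in 4 libraries. In the group called OGD here, titled ischemic preconditioning in the labels, 2 libraries came from cortical astrocytes of newborn Wistar rats. These cells had 45 min of oxygen and glucose deprivation (OGD) in glucose-free medium at 1% oxygen, and then 24 h of reoxygenation in normal medium. In the control group, 2 libraries came from untreated cortical astrocytes of newborn Wistar rats. Per the labels' protocols, given alike for both groups, the astrocytes grew on coverslips over neurons and shared their medium, held apart by paraffin dots. Libraries held 2513804 to 2646300 counts over all listed rows, 9.98% to 10.6% of the library total behind the authors' FPKM values. Whether the replicates were separate cultures is not stated in the labels. The p-values therefore rest on library-to-library spread that may be only technical.

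Gfap and Vim encode the intermediate filament proteins of astrocytes, and both are classic genes of reactive astrogliosis, the change of shape and gene expression that follows injury. Aldoc encodes the aldolase isoform typical of brain, and Slc1a3 encodes GLAST, a transporter that takes up glutamate. Clu encodes clusterin, a secreted chaperone, and Ndrg2 encodes a protein of the N-myc downstream-regulated family that is abundant in astrocytes. Vim is less particular to astrocytes, since fibroblasts and endothelial cells also make vimentin.

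The rows fall into 2 structural kinds. Gfap.d on chromosome 10, from 90992198 to 90992766, and Vim.e on chromosome 17, from 80887576 to 80888180, are called unspliced in their names, and their lengths of 569 and 605 bases equal their spans. The other 5 rows span more than their length and so contain introns. Aldoc.d has 352 bases within 1502 on chromosome 10, from 65586514 to 65588015. Clu.h has 489 bases within 3682 on chromosome 15, from 42653153 to 42656834. Both Ndrg2 rows lie on chromosome 15, Ndrg2.m from 28308829 to 28309632 with 414 bases and Ndrg2.h from 28311890 to 28314610 with 403 bases, 2257 bases apart. Slc1a3.b has 423 bases on chromosome 2, from 57871198 to 57875604. No other listed row overlapped any of the 7. Coordinates are those of the tables, whose genome build is unclear, and the tables give no strand. Exon, intron or UTR positions within the coding genes were therefore not assigned.

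Promoters of the coding genes are given as background on the loci, and whether the listed noncoding transcripts start there was not tested. RefSeq windows of 300 bases (GRCr8, 250 before the start site and 50 after) were found for 5 of the 6 genes, all but Clu. Gfap and Vim are printed as the most abundant members, and Aldoc because it holds the hypoxia element core. The Slc1a3 windows hold that core as well and are not printed. Capitals mark matches on either strand to ACGTG, the core of the element bound by hypoxia-inducible factors, TATAAA, the TATA box, and CCAAT. TTCNNNGAA, the form bound by STAT factors, was also searched. Matches shown do not overlap each other.
Gfap, chr10:88361612-88361911, minus strand: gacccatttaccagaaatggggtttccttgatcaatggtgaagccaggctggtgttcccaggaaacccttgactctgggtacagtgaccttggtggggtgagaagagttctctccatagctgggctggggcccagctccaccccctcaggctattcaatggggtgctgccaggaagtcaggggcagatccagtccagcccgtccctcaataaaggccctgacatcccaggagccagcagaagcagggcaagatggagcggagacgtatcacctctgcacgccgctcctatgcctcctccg
Vim, chr17:81577011-81577310, plus strand: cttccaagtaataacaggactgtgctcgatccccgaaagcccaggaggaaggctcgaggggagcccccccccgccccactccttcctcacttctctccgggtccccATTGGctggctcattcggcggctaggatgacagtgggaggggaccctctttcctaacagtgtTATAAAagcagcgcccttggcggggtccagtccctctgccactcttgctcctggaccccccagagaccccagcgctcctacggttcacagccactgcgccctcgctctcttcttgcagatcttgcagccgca
Aldoc, chr10:63715294-63715593, plus strand: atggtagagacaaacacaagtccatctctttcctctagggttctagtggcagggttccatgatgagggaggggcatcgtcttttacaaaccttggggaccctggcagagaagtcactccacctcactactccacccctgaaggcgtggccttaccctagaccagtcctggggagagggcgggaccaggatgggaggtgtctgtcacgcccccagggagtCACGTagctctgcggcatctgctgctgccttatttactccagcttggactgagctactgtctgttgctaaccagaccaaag

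In the Vim window TATAAA began at position -82 and the CCAAT match, read on the opposite strand, at -144, where position -1 is the last base before the start site. The Aldoc window held ACGTG on the opposite strand at -31, and each of the 3 overlapping Slc1a3 windows held it 2 times. Of the 2 Ndrg2 windows, 1 held TATAAA on the opposite strand. The Gfap window held none of the 4 motifs as spelled, and no window of the 5 genes held TTCNNNGAA. Among all 33469 RefSeq promoter windows of this length, 19.3% held ACGTG, 14.2% TATAAA, 37.5% CCAAT and 8.87% TTCNNNGAA. These matches are letters in a window and were not tested as binding sites.

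Levels were compared between genes on the deposited FPKM scale, which divides by transcript length. Vim.e was highest, at 24.5 ± 2.44 FPKM after OGD and 27.3 ± 1.80 FPKM in control (SD, n = 2 each). Gfap.d followed at 6.69 ± 4.39 FPKM after OGD and 5.55 ± 2.11 FPKM in control (SD, n = 2 each). The remaining 5 rows lay between 0.567 and 2.96 FPKM in every library. Lowest on average was Slc1a3.b, from 0.567 to 1.04 FPKM. The lowest Vim.e value, 22.8 FPKM, lay above the highest Gfap.d value, 9.80 FPKM, and the lowest Gfap.d value, 3.58 FPKM, lay above the highest value of the other 5, 2.96 FPKM for Aldoc.d. Among those 5 the ranges of neighbours in the order overlapped. Further apart, the highest Slc1a3.b value, 1.04 FPKM, lay below the lowest of Aldoc.d, 1.40 FPKM, and of Ndrg2.m, 1.64 FPKM.

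No member row passed the threshold after OGD. By edgeR's quasi-likelihood test with Benjamini-Hochberg adjustment at 0.05, 0 of the 7 rows, all of which had enough counts to be tested, were called, against 0.00918% of the 10892 rows tested. At an unadjusted p under 0.05 by edgeR the members gave 0, their smallest p being 0.139, against 292 of the 10892 tested rows. DESeq2 called 0 members, against 71 of the 10892. With 3 rows above 0 and 4 below, the members' median log2 fold change was -0.06, beside a median of -0.0046 over all tested rows. In such bulk samples, fewer cells of a type and less RNA per cell cannot be told apart.

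Gfap.d had 139 and 51 counts in OGD replicates 1 and 2, against 100 and 61 counts in control replicates 1 and 2. Scaled to library size by TMM, as CPM, these were 52.6 and 21.3 CPM after OGD and 36.6 and 24.5 CPM in control. The highest and the lowest of the 4 libraries were both OGD libraries, so the groups overlapped. The log2 fold change was 0.28 (SE 0.53, adjusted p = 1.00 by edgeR), with a 95% interval from 0.454-fold to 3.23-fold. Without OGD replicate 1 it was -0.50.

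Vim.e had 396 and 345 counts in OGD replicates 1 and 2, against 431 and 415 counts in control replicates 1 and 2, or 150 and 144 CPM after OGD and 158 and 167 CPM in control. Both OGD libraries lay below both control libraries on this scale, but the FPKM values overlapped, at 26.3 and 22.8 FPKM after OGD and 28.6 and 26.0 FPKM in control. The log2 fold change was -0.14 (SE 0.18, adjusted p = 1.00 by edgeR). Its 95% interval, from 0.648-fold to 1.27-fold, was the narrowest of the 7.

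**Figure D1:**
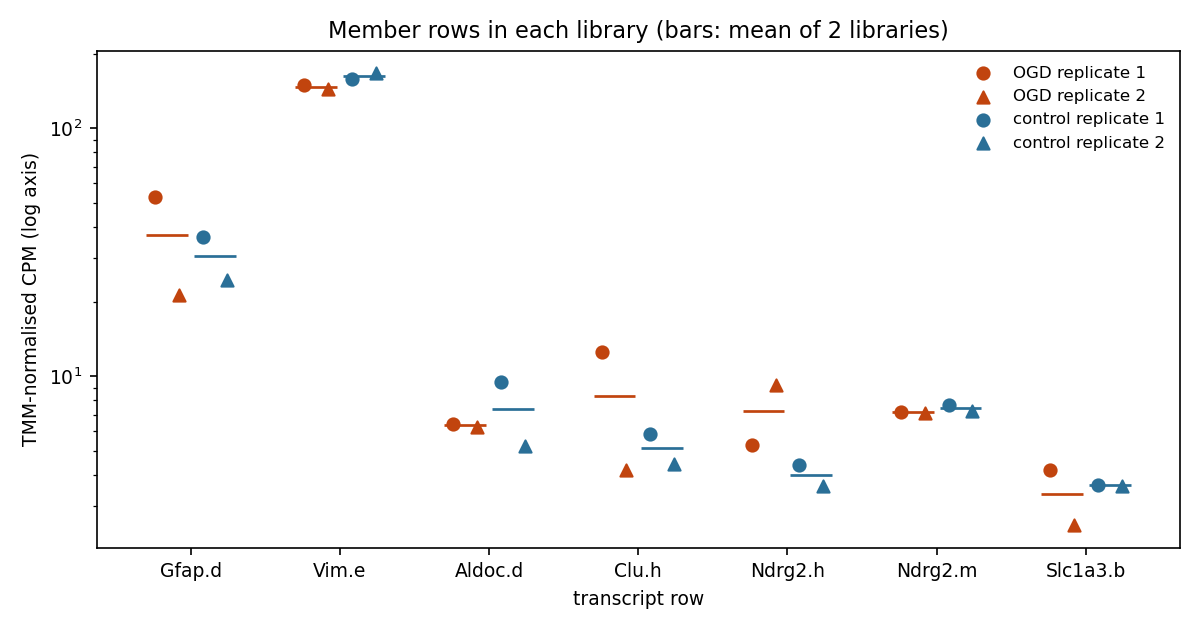
TMM-normalised CPM (log axis) of the 7 rows in each library, OGD left of control, with circles for replicate 1, triangles for replicate 2 and bars for the mean of 2 libraries. Vim.e lies at 150 and 144 CPM in OGD libraries, while Gfap.d runs from 21.3 to 52.6 CPM within the OGD group alone.

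Clu.h had 33 and 10 counts in OGD replicates 1 and 2, against 16 and 11 counts in control replicates 1 and 2. A single library, OGD replicate 1, stood above the other 3, and OGD replicate 2 was the lowest at 4.17 CPM. The log2 fold change was 0.70 (SE 0.64, adjusted p = 1.00 by edgeR), and -0.27 without OGD replicate 1. The interval reached from 0.490-fold to 5.38-fold.

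The 2 Ndrg2 rows had different values. Ndrg2.h had 14 and 22 counts after OGD and 12 and 9 counts in control, and both OGD libraries, at 5.30 and 9.18 CPM, lay above both controls, at 4.39 and 3.61 CPM. Its log2 fold change, 0.84 (SE 0.46, adjusted p = 1.00 by edgeR), was the largest of the members and had the smallest unadjusted p, 0.139. Without OGD replicate 2 it was 0.40, below Clu.h at 1.28 and Gfap.d at 0.79 in the same fit, and without OGD replicate 1 it was 1.21. Ndrg2.m had 19 and 17 counts after OGD and 21 and 18 counts in control, a log2 fold change of -0.06 (SE 0.33). Its OGD libraries lay just below both controls on the CPM scale, but not on the FPKM scale. The difference between these rows was not tested. Summed as 1 locus they gave 0.33 (SE 0.32, adjusted p = 1.00 by edgeR).

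The metabolic and transport genes had few counts. Aldoc.d had 17 and 15 counts after OGD and 26 and 13 counts in control, with both OGD libraries between the controls at 6.44 and 6.26 CPM. Slc1a3.b had 11 and 6 counts after OGD and 10 and 9 counts in control, and its OGD libraries enclosed the controls. The log2 fold changes were -0.22 (SE 0.44) for Aldoc.d and -0.12 (SE 0.49) for Slc1a3.b. Without control replicate 1 Aldoc.d stood at 0.29, and without OGD replicate 2 Slc1a3.b stood at 0.20.

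In all, 1 row (Ndrg2.h) had both OGD libraries above both controls and 2 rows (Vim.e and Ndrg2.m) had both below, on the CPM scale. Of all tested rows, 14.2% had both OGD libraries above and 14.1% both below. On the FPKM scale 1 member row lay above and 0 lay below, against 11.9% above and 14.5% below of all tested rows.

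**Figure D2:**
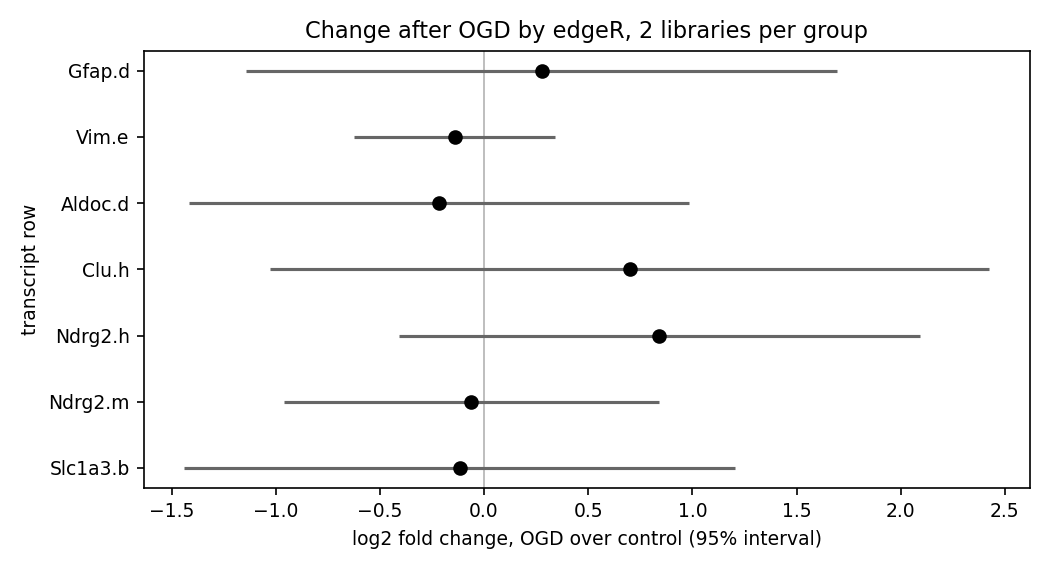
Log2 fold change of OGD over control by edgeR for the 7 rows, with 95% intervals from 2 libraries per group. Every interval includes 0, and the width runs from Vim.e, the narrowest, to Clu.h, which reaches 2.43.

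Rows were also compared between replicate numbers. Both number 2 libraries lay below both number 1 libraries for Gfap.d, Aldoc.d, Clu.h and Slc1a3.b, 4 of 7 rows, and above for 0 of 7. Of all tested rows, 23.8% had both number 2 libraries below and 22.9% both above. What the number stands for is not in the labels, and these ratios are given without a test. On the FPKM scale, which puts the median of all tested rows at -0.15 (OGD) and -0.22 (control) on the log2 scale for number 2 over number 1, 6 member rows lay below and 0 above, against 36.5% below and 13.8% above of tested rows.

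Of the 7 rows, Gfap.d alone had a counting interval below 1 in both groups. Its scaled counts in number 2 were 0.404 of those in number 1 among OGD libraries, with a 95% counting interval of 0.287 to 0.561. Among control libraries the ratio was 0.670, with an interval of 0.479 to 0.930. For Clu.h the ratio was 0.334 (0.147 to 0.694) among OGD libraries and 0.755 (0.317 to 1.73) among control libraries. The intervals are exact binomial ones and cover counting error only.

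Aldoc.d reached its place in the count of 4 through the controls. Its ratio was 0.973 among OGD libraries and 0.549 among control libraries, and both intervals included 1. Slc1a3.b did so through OGD libraries, at 0.601 (0.183 to 1.77), against 0.989 (0.355 to 2.71) among control libraries. Both of its intervals included 1 too. Vim.e had ratios of 0.960 among OGD libraries and 1.06 among control libraries, and Ndrg2.m of 0.986 among OGD libraries and 0.942 among control libraries. Ndrg2.h was at 1.73 among OGD libraries and 0.824 among control libraries. Gfap.d, Clu.h and Slc1a3.b thus had 1 order of libraries in CPM: OGD replicate 1 highest, then control replicate 1, control replicate 2 and OGD replicate 2. For Slc1a3.b the controls were all but equal, at 3.66 and 3.61 CPM.

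Within each replicate number, OGD over control took opposite directions for several members. For Gfap.d the ratio was 1.44 (1.11 to 1.88) in number 1 and 0.869 (0.587 to 1.28) in number 2. For Clu.h it was 2.14 (1.14 to 4.16) in number 1 and 0.945 (0.360 to 2.45) in number 2. Slc1a3.b stood at 1.14 and 0.693, and Aldoc.d at 0.677 and 1.20, in numbers 1 and 2. Vim.e stayed below 1 in both, at 0.952 and 0.864, as did Ndrg2.m at 0.937 and 0.982. Ndrg2.h stayed above 1 in both, at 1.21 (0.519 to 2.86) and 2.54 (1.12 to 6.27). The differences between numbers were not tested.

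**Figure D3:**
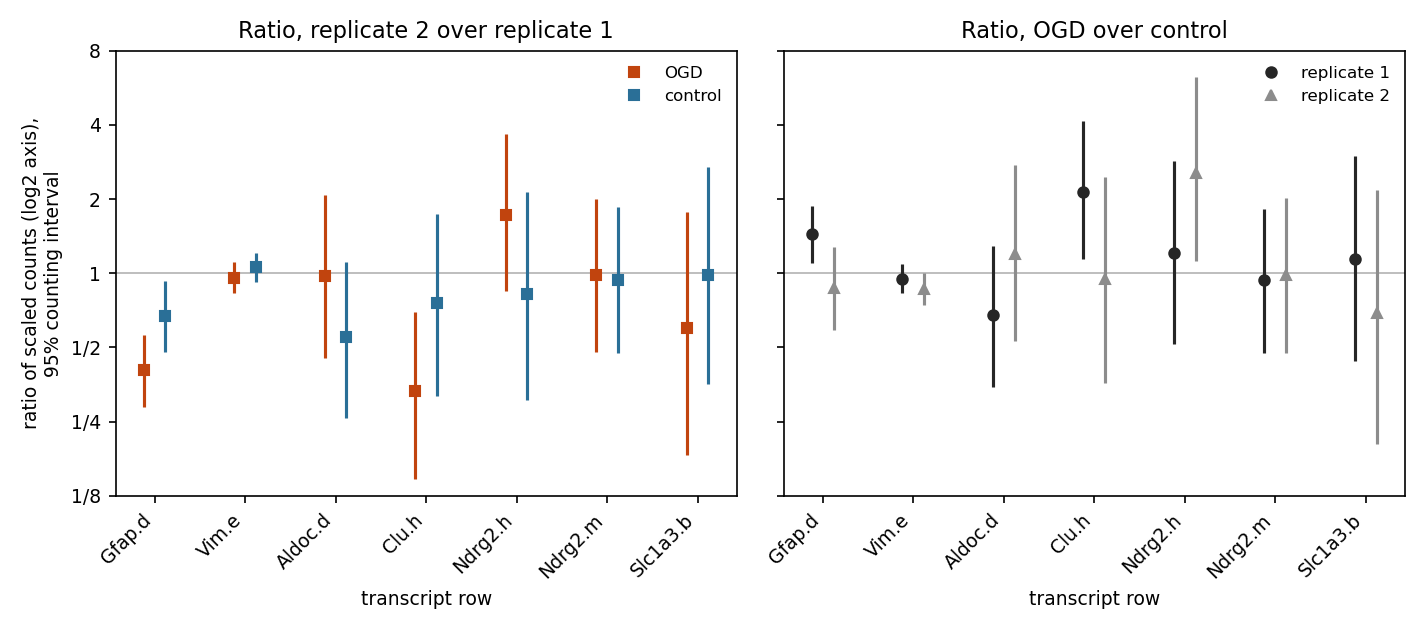
Ratios of scaled counts (log2 axis) with exact 95% counting intervals for the 7 rows, replicate 2 over replicate 1 in the left panel and OGD over control in the right. Gfap.d lies below 1 in both groups on the left, at 0.404 and 0.670, while on the right it lies at 1.44 in replicate 1 and 0.869 in replicate 2.

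Gfap.d over Vim.e, in FPKM, was 0.373 and 0.157 in OGD replicates 1 and 2, against 0.247 and 0.156 in control replicates 1 and 2. Both number 2 libraries thus had nearly equal ratios, and OGD replicate 1 had the highest. By name, 4 of 13 intermediate filament genes had rows. The 3 rows tested were Lmna.e and the members Gfap.d and Vim.e, and 0 passed by edgeR. Their median log2 fold change, -0.14, was the value of Vim.e itself. Lmna, of the nuclear lamina, had 129 and 86 counts after OGD and 117 and 134 counts in control.

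For each of the 2 members with a mean of at least 20 counts over the libraries, the rows of other named genes with the most similar profile were found by root mean square difference of centred log2(CPM + 1). Nearest to Gfap.d were Jakmip2.b, at 0.0174, with 53 and 19 counts after OGD and 39 and 23 counts in control, and Plekhh1.e, at 0.0675. Nearest to Vim.e were Ankrd52.a, at 0.0236, and Col4a1.c, at 0.0271. Over 4 libraries such likeness was not particular to the rows named here. Among 10891 compared, 25 rows lay within 0.1 of Gfap.d and 643 within 0.1 of Vim.e.

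A longer list of astrocyte names, which includes the members other than Vim, gave a wider setting. The tables held rows under 9 of 25 astrocyte marker names, 12 rows in all. The row named Glul, which was not tested, is listed on another chromosome than RefSeq gives for that gene, so it may not belong to it. Of the 12, 10 were tested and 0 called by edgeR, and 0 had an unadjusted p under 0.05. The smallest by edgeR, 0.139, was that of the member Ndrg2.h. DESeq2 called 0 as well. Their median log2 fold change was 0.04, against -0.0046 over all tested rows. The highest, Cst3 (cystatin C, a secreted protease inhibitor that other cells also make), measured 714 ± 182 CPM after OGD and 737 ± 358 CPM in control (SD, n = 2 each). Ttyh1, a membrane protein gene of astrocytes and their precursors, had 134 and 50 counts in OGD replicates 1 and 2 over its 3 rows, against 107 and 93 counts in control replicates 1 and 2. Of the 10 tested rows, 5 had both number 2 libraries below both number 1 libraries, beside 23.8% of all tested rows. They were Ttyh1.g and the members Gfap.d, Aldoc.d, Clu.h and Slc1a3.b, already counted above. In 1, Cst3.b, both lay above, beside 22.9% of all tested rows. All 12 rows summed to 726 and 918 CPM in OGD replicates 1 and 2, with Cst3 the largest part. In control replicates 1 and 2 they summed to 592 and 1077 CPM.

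Genes of reactive astrocytes had few rows. Of 13 names raised in reactive astrocytes generally, 5 had rows and 3 rows were tested: Gfap.d, Vim.e and Hspb1.b, of a small heat shock protein, with 45 and 29 counts after OGD and 39 and 38 counts in control. By edgeR and by DESeq2 0 passed, the smallest unadjusted p by edgeR being 0.473. Names of A1-type genes had 1 row, at Amigo2, and names of A2-type genes had 3, at Clcf1, Cd14 and Tgm1. None of these 4 had enough counts to be tested. The A1-type row reached at most 2.41 CPM in any library, and the A2-type rows summed to at most 5.01 CPM. Among names of glutamate uptake and recycling genes, 5 of 10, the same Glul row included, had rows, 2 rows were tested and 0 passed by edgeR or DESeq2, the smallest unadjusted p by edgeR being 0.376.

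Names of other cell types were present as well. Fibroblast and meningeal names, 5 of 11 with rows, summed to 1106 and 2717 CPM in OGD replicates 1 and 2, against 686 and 3038 CPM in control replicates 1 and 2. The number 2 libraries were higher in both groups. Of their 5 tested rows, 4 had both number 2 libraries above both number 1 libraries and 0 had them below, against 22.9% above and 23.8% below of all tested rows. Gfap.d and Clu.h had the opposite order. The order was not particular to fibroblast names, since Cst3.b of the astrocyte list had both number 2 libraries above as well. So had 3 of 4 tested rows of neuron names and 1 of 3 of microglia and macrophage names, with 0 below in either list. Col1a1, of collagen I, had 329 and 593 counts after OGD and 313 and 693 counts in control. Fn1, of fibronectin, had 2415 and 3028 counts after OGD and 1428 and 3494 counts in control. Lox, of a collagen cross-linking enzyme, had 4 and 2684 counts after OGD and 4 and 3202 counts in control. The part of such cells in the Gfap and Clu differences was not tested.

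Neuron names, 8 of 17 with rows, summed to 116 and 124 CPM in OGD replicates 1 and 2, against 93.6 and 123 CPM in control replicates 1 and 2. Gria2, of a glutamate receptor subunit, had 187 and 222 counts after OGD and 223 and 275 counts in control. Syn1, of a synaptic vesicle protein, had 98 and 45 counts after OGD and 2 and 1 counts in control over its 2 rows. Rbfox3, the NeuN gene, had 6 and 19 counts after OGD and 19 and 20 counts in control. Microglia and macrophage names, 5 of 14 with rows, summed to 19.7 and 53.0 CPM after OGD and 33.6 and 113 CPM in control, in replicates 1 and 2. Ptprc, the CD45 gene, had 13 and 71 counts after OGD and 58 and 91 counts in control. Cd68, of a lysosomal membrane protein, had 15 and 13 counts after OGD and 18 and 16 counts in control. Endothelial and mural names, 3 of 12 with rows, summed to 32.6 and 25.5 CPM after OGD and 4.39 and 8.43 CPM in control. Of these sums Abcc9 made up 32.2 and 22.5 CPM after OGD and 2.19 and 6.83 CPM in control (adjusted p = 1.00 by edgeR). Oligodendrocyte lineage names, 3 of 10 with rows, summed to at most 17.3 CPM, and 0 of 7 ependymal names had a row. By edgeR 0 tested rows of these other cell types passed, and rows of Syn1, Abcc9 and Igf2 had an unadjusted p under 0.05. The smallest, 0.00116, was that of Syn1.b (adjusted p = 0.302), which DESeq2 called.

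**Figure D4:**
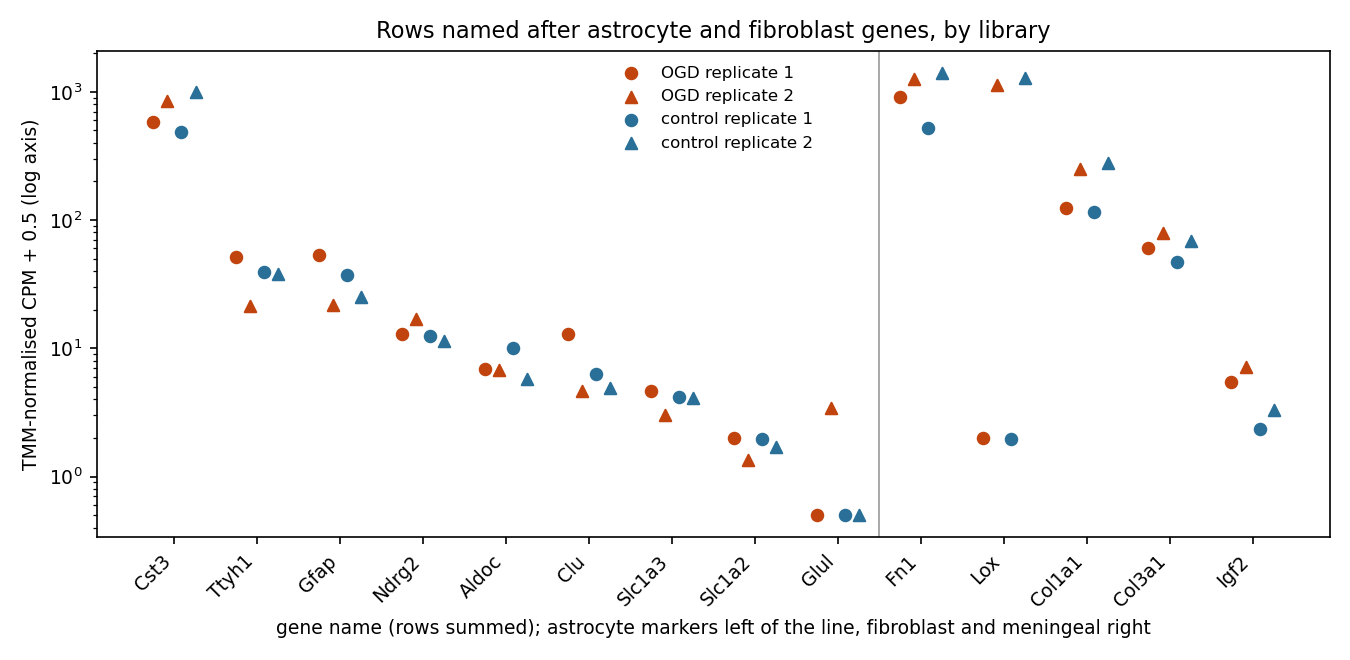
TMM-normalised CPM plus 0.5 (log axis), rows summed per gene name, for astrocyte names left of the line and fibroblast and meningeal names right of it, with OGD in orange, control in blue, circles for replicate 1 and triangles for replicate 2. Triangles lie below circles for Ttyh1, Slc1a2 (too few counts to be tested) and the members Gfap, Aldoc, Clu and Slc1a3, but not for Ndrg2. They lie above circles for Cst3, an astrocyte name, and for Col1a1, Col3a1, Fn1 and Lox.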

How the data were processed

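Counts and FPKM values were deposited by the authors, side by side in 1 table per library. The deposited counts are raw whole numbers per transcript, and the deposited FPKM values scale them by listed length and library total, per the file headers. Within each library all rows above 0 imply 1 total within 0.1%. Per the submitters' processing notes, HISAT2 and StringTie were used, with no version, and mm9, a mouse build, is listed. The tables, however, list 20 autosomes, more than the mouse has, so coordinates are printed without a build. Which program counted reads, and whether it used strand, is not given in the sources used here.

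Tables were joined by transcript identifier. All 20524 rows were fitted with edgeR 4.0.16 in R 4.3.3 (filterByExpr, TMM, quasi-likelihood F test on group alone, Benjamini-Hochberg threshold 0.05), which tested 10892 rows. CPM divide by the TMM-scaled total of tested rows. Each standard error was taken from the fold change and its F statistic. The steps were tested on simulated counts, a test whose pass required recovery of large changes only. The power for changes as small as those of the members is not given here. Ratios have exact 95% binomial intervals. Alternatives were DESeq2 1.42.0, other scalings, no filter, rows summed per name, a block for replicate number, and leaving out libraries singly. Marker lists were matched by symbol or former symbol in the RefSeq table of GRCr8. By the rule for named genes, member rows averaging 20 counts or more in either group (Gfap, Vim and Clu) are given in full. The other members' values are given too, a choice made after they were seen, as was naming Igf2 and Col3a1. Up to 3 names per list, by mean CPM, are given, except some that are not reported here. The members and lists were chosen with earlier results of these data known. Figures were drawn with matplotlib 3.10.9.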

Additional observations from a re-analysis of the deposited data

How the results depend on the processing

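The count of 0 called member rows was 0 under all 11 alternatives. Of 77 alternative log2 fold changes of members, 72 kept their direction, and 0 had an adjusted p under 0.05; the smallest was 0.902. With 1 library left out, which takes the spread of the single remaining library from the other group, Gfap.d lay between -0.50 and 0.79, Clu.h between -0.27 and 1.28, Aldoc.d between -0.57 and 0.29 and Slc1a3.b between -0.51 and 0.20. Ndrg2.m moved to 0.33 when summed with Ndrg2.h, by construction. Some settings tested other sets than the 10892 rows of the main fit. These held 10922 rows with FPKM-implied totals, 9581 loci with rows summed per gene name, and 11892 to 12124 rows with 1 library left out. The count over all rows was 1 of 10892 (syby.a, named after its values were seen), with 292 at an unadjusted p under 0.05. This count became 8 with FPKM-implied totals, 71 with DESeq2, 8 with rows summed per gene name and 0 with the replicate block (420 at an unadjusted p under 0.05). It was 0 with each library left out, with 343 to 466 at an unadjusted p under 0.05. The cause was not tested. Same-numbered libraries' deviations from group means correlated at 0.193 across rows, and with 2 per group the number is not shown to pair them; under the replicate block Gfap.d stood at 0.17. Of the ratios between replicate numbers, Vim.e moved from 0.01 to -0.17 and Ndrg2.m from -0.05 to -0.23 (log2) with FPKM-implied totals. Of the 7 rows, 5 had at most 33 counts in every library, which limits the precision of their ratios.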
